A study of Mus musculus with 7 samples.

Results

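Cathepsins A, B, C, D, H, L and Z and legumain are protein-digesting enzymes of the lysosome, and their 8 genes were followed across mouse embryos that lacked Adnp, carried it on one chromosome or carried it on both. Adnp encodes a DNA-binding protein without which embryos die around mid-gestation. The genes were taken by symbol: Ctsa, Ctsb, Ctsc, Ctsd, Ctsh, Ctsl, Ctsz and Lgmn. They were represented by 13 probe sets that carry one of these symbols and no other, of 20380 such single-symbol probe sets for 12393 genes on the Affymetrix Murine Genome 430A array. Of the genes, 6 had 1 probe set each, Ctsb had 4 and Ctsz had 3. Every one of the 8 genes was among the 8019 tested.

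Whole mouse embryos of strain C57BL/6 were taken on embryonic day 9, of mixed sex, from matings of Adnp heterozygotes. Yolk sac and amnion were removed, and PCR on yolk-sac DNA for Adnp and the neomycin resistance gene gave the genotype. The groups were 2 arrays of Adnp knockout embryos (Adnp -/-), 3 of heterozygous littermates (Adnp +/-) and 2 of wild-type littermates (Adnp +/+). Each array held RNA of a pool of 2 littermates of one genotype, so the replicate is a pool. Which pools came from one litter is not stated in the labels.

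Values are MAS5 signals, the brightness of a probe set on a linear scale, and log2 differences are on the log2(signal + 3.8) scale, which understates changes of dim genes. Called genes had an adjusted p under 0.05 in limma, a linear model fitted to all genes and arrays at once. With 2 or 3 arrays a genotype, the number of arrays sets the precision. The targeted gene could not be checked, since its one probe set carries the symbol Dpm1 as well. That probe set read 1880 and 1682 on the knockout arrays, 1115, 985.9 and 1196 on the heterozygous arrays and 897.2 and 1026 on the wild-type arrays, so the genotypes rest on the labels. Markers of the embryo proper (14 of 15 with a probe set) summed to 2944 to 3365 in the knockout, 3218 to 3751 in heterozygotes and 3134 to 3974 in wild type. The Y-linked score, a mean log2 signal of 3 genes, was 5.69 and 6.11 in the knockout and 5.11 to 5.99 in heterozygotes, against 3.56 and 3.14 in wild type. In comparisons with wild type, genotype and the sex make-up of the pools thus cannot be told apart.

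Lysosomal proteases are made as inactive precursors, tagged with mannose 6-phosphate in the Golgi and activated in acid compartments, where they break down proteins taken up from outside or delivered by autophagy. Cathepsins B, C, H, L and Z are cysteine proteases of the papain family, cathepsin D is an aspartic protease, cathepsin A is a serine carboxypeptidase, and legumain is an asparagine-specific protease that also processes cathepsins. Around the early mouse embryo, the visceral endoderm takes up maternal protein by endocytosis and digests it in lysosomes, and cysteine cathepsins are abundant in it. Many lysosomal genes carry near their start the letters CACGTG, within a longer palindrome bound by the factor TFEB and its relatives.

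The starts of the genes are shown because this motif is known from lysosomal promoters. RefSeq sequence (GRCm38.p6) from 250 bases before to 50 after a gene's start was matched for 6 of the 8 genes, in 8 windows, and searched on both strands. CACGTG stood in a window of 4 of these 6 genes (Ctsa, Ctsd, Ctsl and Lgmn) of 12.3% of the 6538 tested genes with a window and of 8.09% of all 27025 genes with one. The longer TCACGTGA, which holds CACGTG, stood in windows of Ctsa and Ctsd, of 2.32% of tested genes and of 1.12% of all genes. The matches of Ctsa and Lgmn lie at the downstream of their starts, and which start embryos of this age use is not known here. With the most upstream window of each gene alone, 2 of the 6 genes held CACGTG and 1 held TCACGTGA. The shares of all genes above count a match in any window of a gene, so they are no match for this rule. The matches that end before the start follow with 30 bases each, 5′ to 3′ on the gene's strand and CACGTG in capitals.
Ctsa (chr2:164833743-164833772, + strand, 12 bases before the downstream of its starts): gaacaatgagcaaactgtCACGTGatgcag
Ctsd (chr7:142387908-142387937, - strand, 98 bases before the start): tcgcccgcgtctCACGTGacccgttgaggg
Ctsd (chr7:142388048-142388077, - strand, 245 bases before the start): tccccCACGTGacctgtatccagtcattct
Ctsl (chr13:64370739-64370768, - strand, 236 bases before the start): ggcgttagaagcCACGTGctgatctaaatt
Lgmn (chr12:102439124-102439153, - strand, 49 bases before the downstream of its starts): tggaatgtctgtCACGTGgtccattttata
For Ctsc, a strongly raised gene whose window held no such match, the 120 bases before the start (chr7:88277965-88278084, + strand) are shown for comparison.
Ctsc: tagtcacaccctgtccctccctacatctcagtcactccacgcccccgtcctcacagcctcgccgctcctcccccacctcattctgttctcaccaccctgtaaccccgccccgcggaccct
A match describes the letters of the window and is not a measured binding site.

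Against wild type, 7 of the 8 genes rose in knockout embryos (limma, Benjamini-Hochberg adjustment over 8019 genes), 0 fell, and Ctsd did not pass. Among all genes tested, 3.32% were called in this comparison, 1.96% higher and 1.36% lower. All 8 differences were positive, as were 47.7% of those of all genes. The largest rises were those of Ctsh, Ctsc and Lgmn, with log2 differences of 2.71, 2.03 and 1.98, and the median over the 8 genes was 1.18, against -0.015 over all genes. On the probe set that stands for each gene, both knockout arrays lay above all 5 other arrays for 8 of 8 genes, as they did for 14.2% of all genes. Of single probe sets, 12 of the 13 had both knockout arrays above the other 5, as did 12% of all 22626 probe sets. All 8 genes also passed the brightness filter on the 5 other arrays alone.

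**Figure D1:**
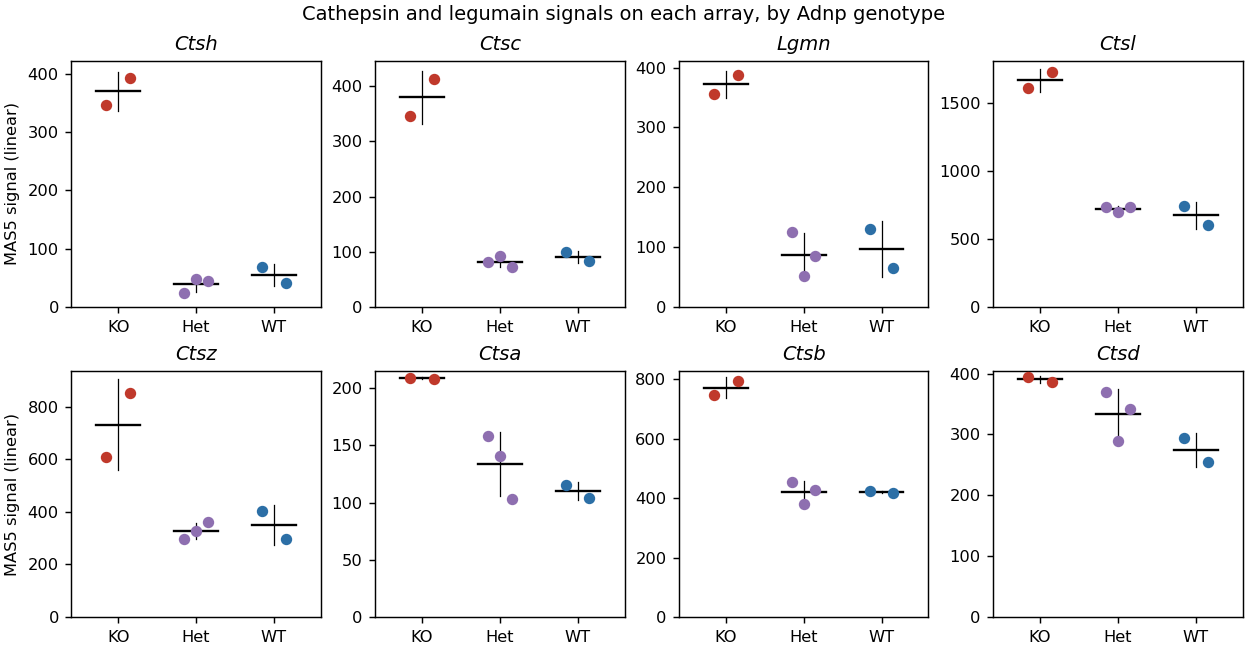
MAS5 signal of the probe set that stands for each gene, by genotype (KO, knockout; Het, heterozygous; WT, wild type); points are arrays, horizontal bars are means and vertical lines are 1 SD on either side (n = 2, 3 and 2). In all 8 panels both knockout points lie above the other 5, by a wide margin for Ctsh (346 and 393 against at most 67.9) and a narrow one for Ctsd (394.8 and 386.7 against at most 370.4).

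Among the exopeptidases, which trim proteins from an end, Ctsh had the largest change. Cathepsin H, an aminopeptidase, had signals of 346 and 393 in the knockout, 24.4, 47.9 and 44.4 in heterozygotes and 67.9 and 41.7 in wild type. The lowest knockout signal was 5.1 times the highest of the other arrays. The log2 rise against wild type was 2.71 (SE 0.31, limma, adjusted p = 0.00193) and that against heterozygotes 3.17 (SE 0.28, adjusted p = 0.000397). Ctsh ranked 15th of 8019 genes by the size of its rise over wild type and 12th by that over heterozygotes.

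Cathepsin C, the dipeptidyl peptidase that activates granule serine proteases of blood cells, had the next largest rise. Ctsc signals were 346.2 and 413.8 in the knockout, 80.5, 91.4 and 72.1 in heterozygotes and 98.6 and 82.3 in wild type. The 5 arrays without the knockout spanned 1.37-fold, while the knockout arrays began 3.51-fold above the highest of them. Ctsc rose by 2.03 against wild type (SE 0.18, limma, adjusted p = 0.000497) and by 2.17 against heterozygotes (SE 0.16, adjusted p = 9.72e-05), the sixth smallest p-value of all genes in both comparisons.

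Cathepsin Z, a carboxypeptidase, was measured by 3 probe sets that all moved the same way. The brightest, 1417868_a_at, read 609.9 and 852.8 in the knockout, 297.2, 325.6 and 360 in heterozygotes and 403.2 and 294.9 in wild type. It was higher by 1.06 in the knockout against wild type (SE 0.19, limma, adjusted p = 0.0164) and by 1.13 against heterozygotes (adjusted p = 0.00612). Knockout replicate 2 was the higher of the knockout pools on each of the 3 probe sets, and the knockout overlapped with no other genotype on any of them. In a fit over 13576 probe sets, of which 2.01% were called against wild type and 4.01% against heterozygotes, 1417869_s_at rose by 1.44 against wild type (adjusted p = 0.016). There 1417870_x_at had a log2 difference of 0.80 and did not pass (adjusted p = 0.0604), though it passed against heterozygotes (0.74, adjusted p = 0.0424). The suffixes s and x mark probe sets whose probes can match other transcripts. Without knockout replicate 2 the gene lost its call against wild type (log2 difference 0.82, adjusted p = 0.155) and against heterozygotes (0.89, 0.0856), and without wild-type replicate 2 that against wild type (0.83, 0.154).

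Of the endopeptidases, which cut within proteins, cathepsin L, an enzyme with broad specificity, had signals of 1604 and 1721 in the knockout, 731.1, 697.3 and 733.3 in heterozygotes and 742.7 and 599.4 in wild type. Its signal differed 1.24-fold over the 5 arrays without the knockout, and the lower knockout array was 2.16 times the highest of these. Ctsl rose by 1.31 against wild type (SE 0.12, limma, adjusted p = 0.000646) and by 1.20 against heterozygotes (SE 0.11, adjusted p = 0.000437).

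Cathepsin B, an endopeptidase that can also act as a carboxypeptidase, gave a different size of change on different probe sets. On the brightest, 1417490_at, the signals were 746.7 and 796.1 in the knockout, 453.7, 381.3 and 428.8 in heterozygotes and 423 and 417.4 in wild type. This probe set rose by 0.87 against either genotype (SE 0.12 against wild type and 0.11 against heterozygotes; limma, adjusted p = 0.00478 and 0.00201). The next brightest, 1448732_at, read 459.6 and 692.4 in the knockout, 402.1, 332.7 and 380.6 in heterozygotes and 420.5 and 439.8 in wild type, with knockout replicate 1 just above the highest wild-type pool. Its log2 difference was 0.39 against wild type and 0.60 against heterozygotes, and neither passed in the fit over probe sets (adjusted p = 0.306 and 0.0773). The other two lay under the brightness filter: 1417492_at at 25.8 and 38 in the knockout and 3.7 to 20.7 elsewhere, and 1417491_at at 30.9 and 19.4 in the knockout and 16.7 to 29.9 elsewhere, where the genotypes overlapped. Without knockout replicate 2, Ctsb had a difference of 0.82 against wild type and did not pass (adjusted p = 0.0647). With the mean of its 4 probe sets in place of the brightest, the difference was 0.66 (adjusted p = 0.0955).

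**Figure D2:**
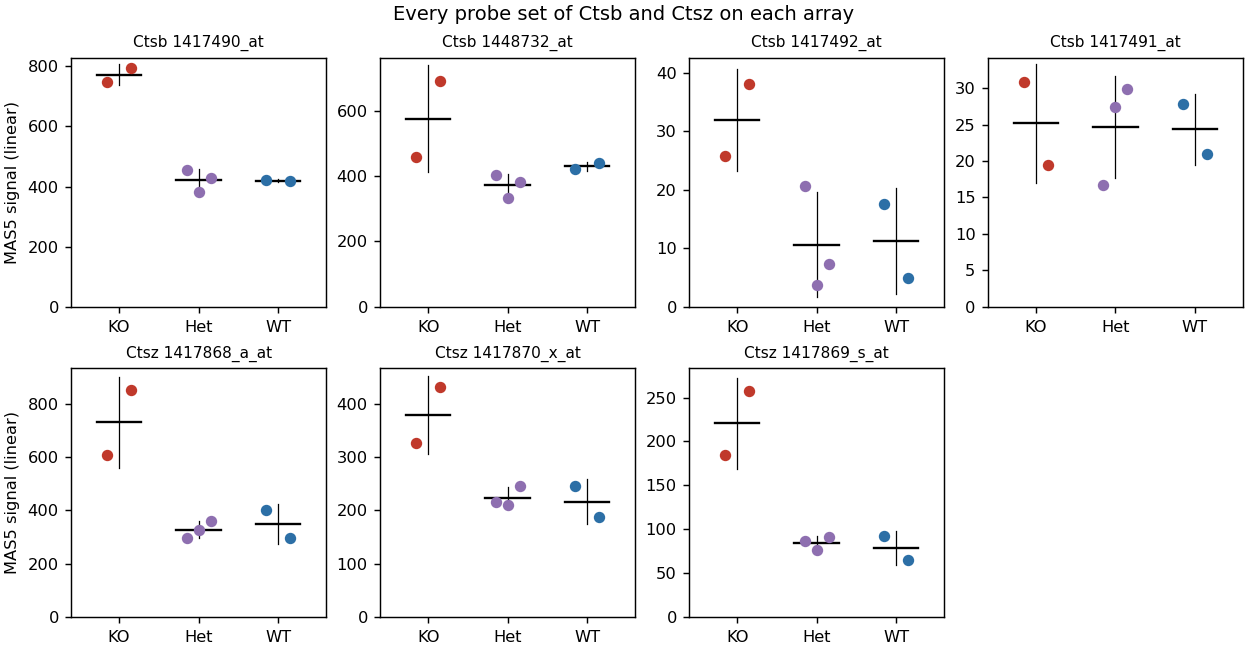
MAS5 signal of each probe set of Ctsb (4, upper row) and Ctsz (3, lower row) by genotype; points are arrays, horizontal bars are means and vertical lines are 1 SD on either side. All Ctsz panels separate the knockout from the other arrays, while Ctsb probe set 1417491_at, at 30.9 and 19.4 in the knockout, does not.

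Legumain had the largest standard errors of the 8 genes. Lgmn signals were 356.2 and 387.3 in the knockout, 124.7, 52.3 and 84.9 in heterozygotes and 129.9 and 64.3 in wild type. The heterozygous and wild-type pools spanned 2.48-fold and overlapped each other, and the lowest knockout signal was 2.74 times the highest of them. Lgmn rose by 1.98 against wild type (SE 0.37, limma, adjusted p = 0.0201) and by 2.12 against heterozygotes (SE 0.34, adjusted p = 0.00714). The call against wild type was lost without knockout replicate 1 (2.04, adjusted p = 0.112), knockout replicate 2 (1.92, 0.148) or wild-type replicate 2 (1.49, 0.162). Against heterozygotes it was lost without either knockout array (adjusted p = 0.0647 and 0.0856).

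Cathepsin A, which protects neuraminidase 1 and beta-galactosidase in a lysosomal complex, had signals of 209.2 and 208.3 in the knockout, 158, 140.5 and 102.9 in heterozygotes and 115.3 and 104.2 in wild type. Heterozygous replicates 1 and 2 lay between the knockout and wild type, and replicate 3 lay below both wild-type pools. Ctsa rose by 0.91 against wild type (SE 0.20, limma, adjusted p = 0.0346), but its difference of 0.65 from heterozygotes did not pass (SE 0.18, adjusted p = 0.0612). It lost its call against wild type without any one of the knockout or wild-type arrays (adjusted p = 0.183 and 0.184 without knockout replicates 1 and 2, 0.0782 and 0.237 without wild-type replicates 1 and 2). In the fit over probe sets Ctsa did not pass against wild type either (adjusted p = 0.0551). Against heterozygotes it passed without heterozygous replicate 1 (0.78, adjusted p = 0.0369). Ctsa and Ctsz lie on chromosome 2, as Adnp does, and the other 6 genes lie on other chromosomes.

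Cathepsin D, the main aspartic protease of lysosomes, was the one gene of the 8 that passed in neither knockout comparison. Ctsd signals were 394.8 and 386.7 in the knockout, 370.4, 289.3 and 341.8 in heterozygotes and 293.7 and 254.2 in wild type. Its log2 difference was 0.51 against wild type (SE 0.14, 95% interval 0.19 to 0.83, limma, adjusted p = 0.0857) and 0.23 against heterozygotes (interval -0.06 to 0.52, adjusted p = 0.332).

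The knockout comparisons share the knockout arrays and are therefore not independent. Against heterozygotes, 6 of the 8 genes rose, 0 fell, and Ctsa and Ctsd did not pass, where 5.86% of all genes were called, 3.11% higher and 2.76% lower. The median over the 8 genes was 1.17, against -0.023 over all genes. Both comparisons called the same 6 genes (Ctsb, Ctsc, Ctsh, Ctsl, Ctsz and Lgmn) higher, as they did 1.58% of all genes.

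Heterozygous embryos were also compared with wild type. None of the 8 passed between these genotypes (0 by limma after adjustment, and 0 at an unadjusted p under 0.05), nor did any of the 8019 genes (0% called, 284 or 3.54% at an unadjusted p under 0.05). Log2 differences were positive for 3 genes (51.7% of all genes) and negative for 5, with a median of -0.039. The furthest from 0 was Ctsh at -0.47 (95% interval -1.10 to 0.16). The narrowest interval was that of Ctsb, -0.24 to 0.24, and the widest that of Lgmn, -0.90 to 0.60. With 3 and 2 arrays, changes within these bounds were not excluded.

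**Figure D3:**
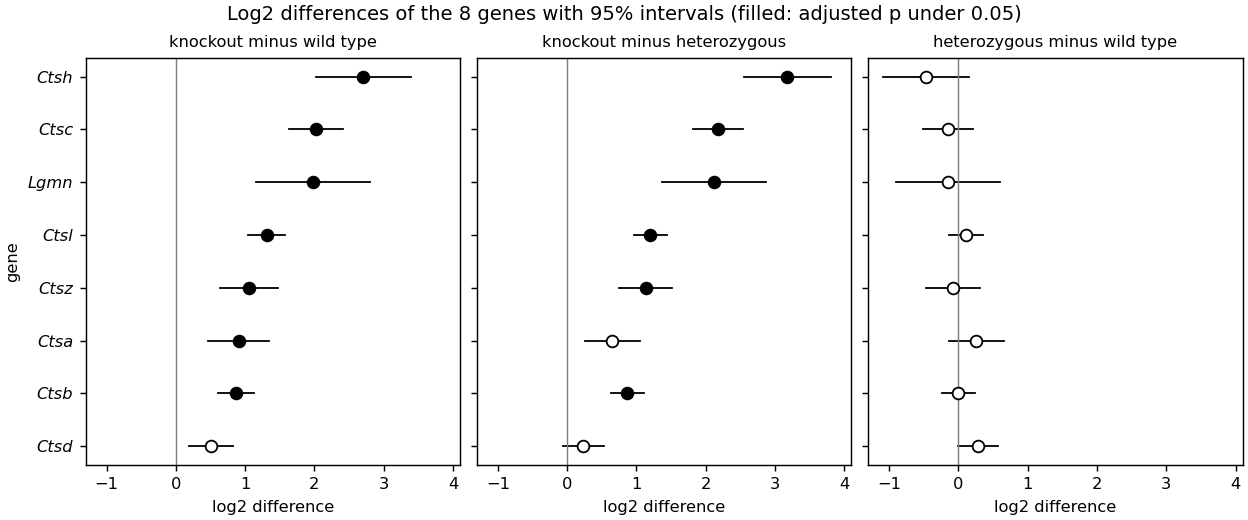
Log2 difference of each gene in 3 comparisons (panels); points are limma estimates, filled where the adjusted p was under 0.05, and lines are 95% intervals. In both knockout panels the estimates run from Ctsh (2.71 and 3.17) down to Ctsd (0.51 and 0.23), and in the heterozygous panel every interval includes 0.

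The genes differed among themselves in the size of the rise. Against wild type, the 95% interval of Ctsh was 2.02 to 3.39, that of Ctsc 1.63 to 2.42 and that of Lgmn 1.15 to 2.80. The interval of Ctsl was 1.05 to 1.58, that of Ctsz 0.63 to 1.48, that of Ctsa 0.47 to 1.34 and that of Ctsb 0.61 to 1.13. The intervals of Ctsh and Ctsc thus lay wholly above those of Ctsl, Ctsz, Ctsa, Ctsb and Ctsd, while that of Lgmn overlapped those of Ctsl, Ctsz and Ctsa. Differences between genes were not tested.

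Markers of visceral endoderm moved with the cathepsins. Of 25 listed markers 22 had a probe set, and their summed signal was 11044 and 13166 in the knockout, against 974.2 to 2311 in heterozygotes and 990.1 to 3322 in wild type. Of the 17 markers tested, 8 rose against wild type, 0 fell and 9 did not pass (median 2.66), where 1.96% of all genes were called higher. Against heterozygotes 11 rose, where 3.11% of all genes were called higher. Of the 17, 5 passed the brightness filter only through the knockout arrays, 3 of those called against wild type among them. These 5 were tested only through their high knockout values, so neither count can be weighed as such against these shares. Afp, alpha-fetoprotein, read 1604.5 and 2025 in the knockout, 131.4, 323.3 and 152.6 in heterozygotes and 559.7 and 140.5 in wild type (log2 difference from wild type 2.66, limma, adjusted p = 0.0274). Apoa1, an apolipoprotein, read 1396 and 1706 in the knockout, 11.8, 73.8 and 65.3 in heterozygotes and 142.7 and 14.2 in wild type (4.91, adjusted p = 0.0171). Ttr, transthyretin, at 1937 and 2654 in the knockout and at most 665.5 elsewhere, did not pass (3.45, adjusted p = 0.109). Their part in the results for the 8 genes was looked at only as the covariate below, which cannot be told apart from genotype. In whole embryos, a larger share of such cells and more RNA in each of them cannot be told apart.

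Among the pools without the knockout, the genes followed these markers to different degrees. The visceral endoderm score was the mean log2 signal of the 17 markers, including the 5 that passed the filter only through the knockout arrays. This score was 8.62 and 8.81 in the knockout. It was 7.08 in wild-type replicate 1, 6.65 and 6.10 in heterozygous replicates 2 and 3, 5.40 in wild-type replicate 2 and 5.27 in heterozygous replicate 1. In that order of falling score, Ctsh read 67.9, 47.9, 44.4, 41.7 and 24.4, falling at each step. Ctsc read 98.6, 91.4, 72.1, 82.3 and 80.5 and Ctsz 403.2, 325.6, 360, 294.9 and 297.2, both highest in the pool with the highest score but not falling at each step. Ctsl read 742.7, 697.3, 733.3, 599.4 and 731.1, Ctsb 423, 381.3, 428.8, 417.4 and 453.7, and Lgmn 129.9, 52.3, 84.9, 64.3 and 124.7, with no such order. Of these 5 pools, Ctsd, Ctsa and Ctsb were highest in heterozygous replicate 1, the one with the lowest score.

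With the score as a covariate, 0 of the 8 genes passed in either knockout comparison, and 5 of all genes passed against wild type and 3 against heterozygotes. The log2 differences from wild type in that fit were 1.68 for Ctsc (limma, adjusted p = 0.0909), 1.46 for Ctsh (0.217), 1.08 for Ctsl (0.118), 1.02 for Ctsb (0.165), 1.96 for Lgmn (0.388), 0.95 for Ctsa (0.434), 0.58 for Ctsd (0.525) and 0.51 for Ctsz (0.639). Both knockout scores lay above the range of the other 5 arrays, so genotype and score cannot be told apart. Against their values without the score, Ctsh (2.71), Ctsc (2.03), Ctsl (1.31) and Ctsz (1.06) had lower estimates and Ctsb (0.87) and Ctsd (0.51) higher ones, while those of Lgmn (1.98) and Ctsa (0.91) were close. When the Y-linked score took its place (chosen after seeing the data), 0 of the 8 genes and 0 of all genes passed against wild type, while 6 of the 8 and 144 of all genes passed against heterozygotes. The differences from wild type were then lower for Ctsa (0.10), Ctsz (0.39), Ctsc (0.92), Ctsh (1.37) and Ctsl (1.09) than without a score. Those of Lgmn (2.62), Ctsb (1.17) and Ctsd (0.91) were higher. Both wild-type pools had lower Y-linked scores than all other arrays, so this fit cannot separate genotype from that score against wild type.

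**Figure D4:**
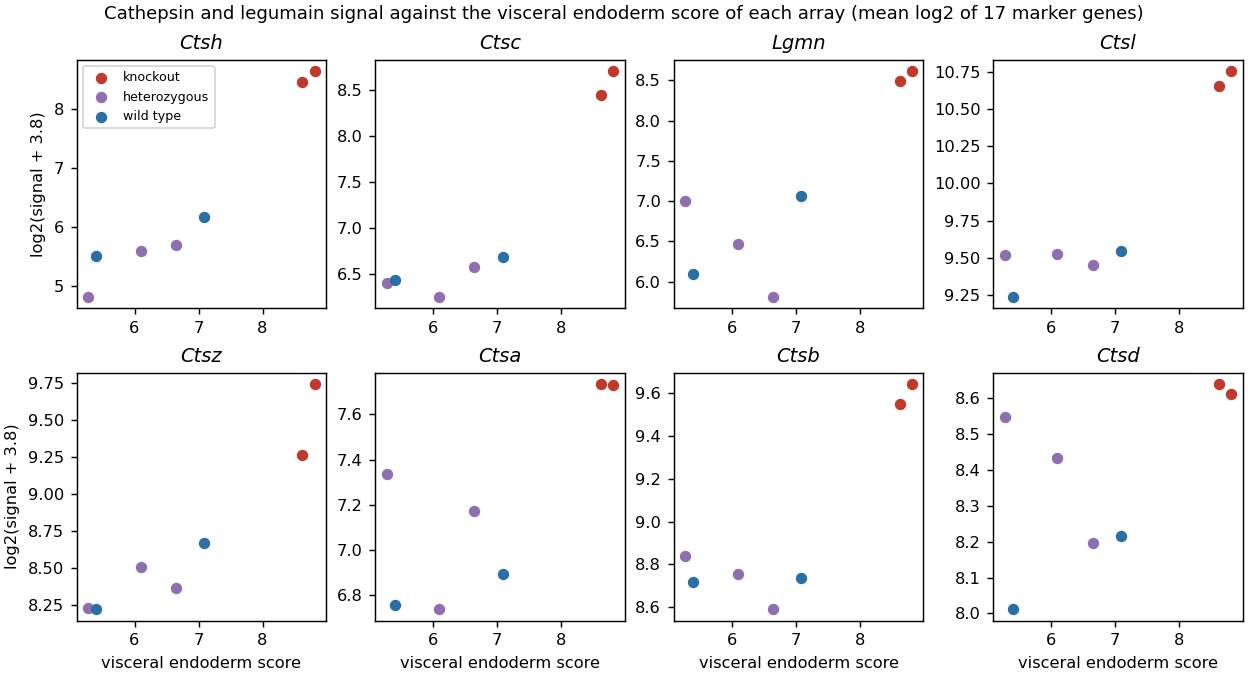
Log2(signal + 3.8) of each gene against the visceral endoderm score of each array (mean log2 signal of 17 marker genes); colours are genotypes and each point is an array. The knockout points lie at the upper right of every panel, and among the other 5 points Ctsh climbs with the score (24.4 to 67.9 as signal) while Ctsd and Ctsa do not.

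Macrophages, which are rich in cathepsins, were represented by 17 of 18 markers, all at low signals. Their summed signal was 341.9 and 435.6 in the knockout, 293.8 to 322.8 in heterozygotes and 272.4 to 335.9 in wild type, and Csf1r was the only marker bright enough to be tested. Csf1r, the receptor of colony-stimulating factor 1, read 71.8 and 86.4 in the knockout, 44.7, 69.7 and 76.8 in heterozygotes and 62.3 and 57.2 in wild type, where the genotypes overlapped (log2 difference from wild type 0.38, limma, adjusted p = 0.472). Adgre1 (F4/80) was at 36.1 and 50.9 in the knockout and at 25.4 to 34.3 elsewhere, Ptprc (CD45) at 8.4 and 17.4 and at 1.3 to 15, and C1qb at 1.9 and 10 and at 8.4 to 29.2. In the whole list 4 of the 17 markers had both knockout arrays above the other 5, as did 12.8% of all 12393 genes. Beside Adgre1 these were Mrc1 (37.3 and 38.2 in the knockout, at most 19.4 elsewhere), Tyrobp (18.5 and 30.5, at most 14.5) and Fcer1g (7.9 and 10.2, at most 6.6). No marker of this list was at 0, and its part in the results was not tested. Ctss, the cathepsin of antigen-presenting cells, was at 10.3 and 9.7 in the knockout and at 1.4 to 9 elsewhere, under the brightness filter.

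Trophoblast and decidua, tissues that lie beside the embryo, were checked as well. The sums of 10 of 14 trophoblast markers were 555.1 and 596.2 in the knockout, 457.7 to 550.9 in heterozygotes and 505.9 to 562.6 in wild type, and Tpbpa was at 10.5 and 11.7 in the knockout and at 5.2 to 20.6 elsewhere. Plac1 alone of the 10 had both knockout arrays above the others, at 90.3 and 104.7 against at most 66.2. The 8 cathepsin genes that mouse placenta expresses, such as Ctsj and Ctsq, all had a probe set and all lay under the filter, at signals of 0.3 to 13.1. Prl8a2, a prolactin-like hormone of decidua, was at 46.1 and 138.4 in the knockout, 828.6, 37.6 and 27.4 in heterozygotes and 37.4 and 16.2 in wild type. Its high value in heterozygous replicate 1 went with the highest Ctsa, Ctsb, Ctsd and Lgmn signals among heterozygotes, and its part in those was not tested. Of 5 tested decidua markers 1 fell against wild type and 0 rose, where 1.36% of all genes were called lower. Under the filter, Bmp2 (41.7 and 48.8 in the knockout, at most 21.2 elsewhere) and Cebpb (57.7 and 54.1, at most 29.9) had both knockout arrays above the others. The sums of the 9 decidua markers were 395.4 and 489.7 in the knockout, 311.1 to 1159 in heterozygotes and 287.4 to 366.6 in wild type.

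Other genes of the lysosomal system were set beside the 8. Of 64 further tested genes for proteases, inhibitors, sorting, activators, hydrolases, membrane proteins and the proton pump, 1 rose against wild type after adjustment over all genes and 0 fell, near the 1.96% of all genes called higher. Against heterozygotes 7 of the 64 rose and 0 fell, where 3.11% of all genes were called higher. With genes under the filter included, both knockout arrays lay above the other 5 for 4 of 12 other proteases. They did so for 3 of 10 cystatins and related inhibitors, 7 of 12 sorting genes and 2 of 5 activators. Both also lay above the others for 4 of 20 hydrolases, 5 of 9 membrane proteins and 9 of 15 proton pump subunits. The counts were 0 of 8 placental cathepsins and 0 of 3 transcription factors, and the share of all 12393 genes was 12.8%. The gene called against wild type was Hexa, the alpha subunit of beta-hexosaminidase, at 329.2 and 346.6 in the knockout, 185.1, 164.2 and 134.3 in heterozygotes and 159.6 and 132.3 in wild type. It rose by 1.20 against wild type (SE 0.17, limma, adjusted p = 0.00622) and by 1.06 against heterozygotes (adjusted p = 0.00539). The other 15 tested glycosidases, lipases and sulfatases did not pass (list median 0.15).

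Other lysosomal proteases had a median log2 difference of 0.53 from wild type over 5 tested genes, and 0 passed. Tpp1, tripeptidyl peptidase 1, read 513.7 and 583.2 in the knockout, 305.8, 396 and 339.6 in heterozygotes and 387.6 and 370.6 in wild type, with no overlap (log2 difference 0.53 from wild type, limma, adjusted p = 0.0732). Against heterozygotes Tpp1 rose by 0.66 (adjusted p = 0.0173). The 7 proteases under the filter, Ctsf, Ctsg, Ctsk, Ctss, Ctsw, Cpq and Napsa, had signals of 1.1 to 61.7, the highest that of Ctsf in heterozygous replicate 1. Ctsf lay lower in the knockout, at 15.5 and 16.9, than on every other array (25.7 to 61.7).

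Cystatins, which block cysteine cathepsins, were listed together with related inhibitors. Of these 14 listed genes 3 were tested, with 0 called and a median of 0.51. Cstb, cystatin B, a cytosolic inhibitor, read 752.9 and 824.9 in the knockout, 565, 601.6 and 601.1 in heterozygotes and 613.7 and 495.7 in wild type, so that the knockout lay above all others (log2 difference 0.51 from wild type, limma, adjusted p = 0.056). In the sorting of enzymes to lysosomes, 0 of 12 genes passed against wild type and 2 rose against heterozygotes (medians 0.20 and 0.29). Vps26a, a retromer subunit that returns sorting receptors to the Golgi, read 426 and 414.5 in the knockout, 303.4, 275 and 204.9 in heterozygotes and 258.7 and 272.1 in wild type. Its log2 difference was 0.66 from wild type (adjusted p = 0.0682) and 0.70 from heterozygotes (adjusted p = 0.0323).

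Among partners of cathepsin A and lysosomal activators 0 of 5 passed against wild type (median 0.18). Gm2a, the GM2 ganglioside activator, had the smallest adjusted p of these (0.64, limma, 0.0839). The largest difference of the list was that of Neu1, neuraminidase 1, which did not pass (1.16, limma, adjusted p = 0.0913). Of 8 lysosomal membrane proteins 0 passed (median 0.14), with Lamp1 at 1376 and 1409 in the knockout, 990.4, 1109 and 1122.5 in heterozygotes and 1066 on both wild-type arrays (0.38, adjusted p = 0.0682). Against heterozygotes 2 of the 8 rose, Lamp1 among them (0.38, adjusted p = 0.0432). Of 15 proton pump subunits 12 had a positive difference and 0 passed (median 0.32), Atp6v1f coming nearest (0.56, adjusted p = 0.054), and 1 rose against heterozygotes. Among all genes 47.7% had a positive difference. Tfeb, Tfec and Mitf, which drive lysosomal genes, lay under the filter at signals of 0.9 to 38.1, with the knockout not above the other arrays for any of the 3.

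Receptors that feed the lysosome were tested too. Of 9 tested endocytic receptors and adaptors 3 rose against wild type, 0 fell and 6 did not pass (median 1.10), where 1.96% of all genes were called higher. Against heterozygotes 5 rose, where 3.11% of all genes were called higher. Lrp2, megalin, read 177.6 and 156.7 in the knockout, 60.8, 66.3 and 58.4 in heterozygotes and 59.2 and 41.1 in wild type (1.68 against wild type, SE 0.21, limma, adjusted p = 0.00269). Dab2, the clathrin adaptor of megalin, read 976 and 1078 in the knockout, 333.7, 321.2 and 300.3 in heterozygotes and 445.6 and 254.4 in wild type (1.60, SE 0.21, adjusted p = 0.00392). Cubn, cubilin, the partner of megalin, read 658.2 and 700.2 in the knockout and at most 71.5 elsewhere. Cubn and Amn stand in the visceral endoderm list as well. Without the knockout arrays Cubn lay under the brightness filter (mean log2 5.04, filter 5.25), so it was tested only through its high knockout values and had to differ. Amn (4.98) and Stab2 (5.23) lay under it as well, so 3 of the 9 genes entered through the knockout arrays. The counts of 3 and 5 risen genes both include Cubn and cannot be weighed as such against the 1.96% and 3.11%.

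**Figure D5:**
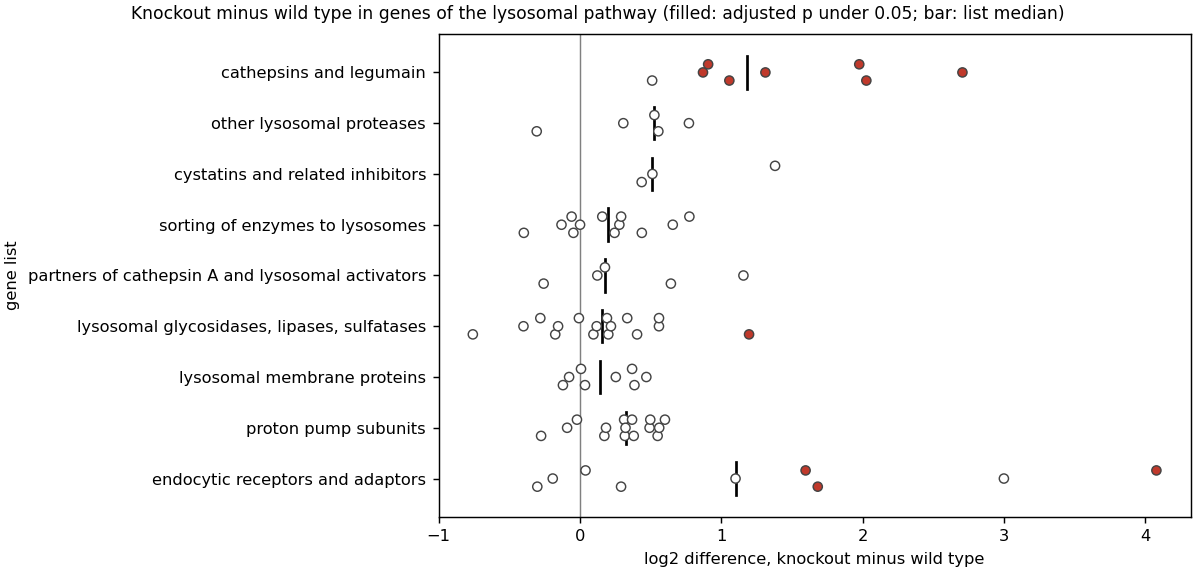
Log2 difference between knockout and wild type for the 8 genes (top row) and for the tested genes of 8 other lysosomal lists (rows); each point is a gene, filled where the adjusted p was under 0.05, and black bars are list medians. Filled points are 7 of 8 in the top row (median 1.18), 3 of 9 among endocytic receptors (median 1.10), Hexa among hydrolases, and none in the other 6 lists. Of the endocytic receptors, Cubn, Amn and Stab2 passed the brightness filter only through the knockout arrays.

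Genes of like pattern were found by the root mean square difference between log2 profiles over the 7 arrays, each profile centred on its own mean. Ctsc was nearest to Morc4 (0.11) and Slc7a9 (0.17), Ctsh to Lgals2 (0.14) and Apob (0.19), and Ctsl to Gipc2 (0.098) and Ndrg1 (0.12). Morc4 read 219.1 and 254.7 in the knockout, 54, 55.9 and 39.2 in heterozygotes and 70.5 and 54.1 in wild type, a pattern close to that of Ctsc. Ctsz was nearest to Gstm1 (0.12) and Krt18 (0.14), Ctsb to Egln1 (0.083) and Sec24d (0.093), Ctsa to Bcr (0.11) and Mdfic (0.11), and Ctsd to Mid1ip1 (0.063) and Naf1 (0.068). For Lgmn the nearest genes were further off, Amph at 0.35 and Dab2 at 0.37. Of the 8 genes, Ctsl and Ctsz were most alike, at 0.17, and Ctsl was the eighth nearest of 8018 genes to Ctsz. For the others, the nearest member ranked 7 for Lgmn, 16 for Ctsh, 17 for Ctsl and 36 for Ctsc. It ranked 92 for Ctsa, 96 for Ctsb and 2951 for Ctsd, where many other genes were nearer.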

How the data were processed

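The authors summarised each Affymetrix array with MAS5, per the submitters' processing notes, and deposited 1 intensity per probe set on a linear scale. The sources used here name no MAS5 version or target, and detection calls were not used. Leaving out the top and bottom 2% of probe sets, all 7 arrays averaged 150.05, so they were already scaled. Of 22690 probe sets, 64 array controls were left out. Names came from the platform annotation, and an update through a GRCm38.p6 gene table changed 0 symbols. Tests used log2(signal + 3.8), with the 10th percentile of the deposited values added. Each gene was represented by its brightest single-symbol probe set, and genes under the 40th percentile of mean log2 signal were left out. Genotypes were compared in R 4.3.3 with limma 3.58.1 (lmFit, eBayes with intensity trend) over 7 arrays, with two-sided p-values and Benjamini-Hochberg adjustment over 8019 genes, or over 13576 probe sets of any annotation. On simulated data for the knockout and wild-type comparison of 8019 genes, 61% of log2 changes of 1 and 95% of those of 2 were recovered. The 8 genes and all lists were chosen with earlier results of these data known. Named genes were the 8, preset markers and the 2 genes nearest in profile to each of the 8. From each pathway list, called genes were named (at most 4, or otherwise the smallest adjusted p). Ctss, Ctsf, Neu1, the other proteases under the filter and the 3 genes between Ctsa and Ctsz were named after their values were seen. The labels do not say whether pools came from separate litters, so p-values measure only the spread between pools.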

Additional observations from a re-analysis of the deposited data

How the results depend on the processing

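The count of risen genes against wild type, 7 of 8, was 4 at an adjusted p under 0.01, 4 without limma's intensity trend, and 3 to 7 with 1 array left out (3 without knockout replicate 2, 4 without wild-type replicate 2, 5 without knockout replicate 1). Adding the visceral endoderm score gave 0 and adding the Y-linked score 0, the last an alternative chosen after seeing the data. Against heterozygotes, 6 of 8, it was 0 after adding the visceral endoderm score, 6 with the Y-linked score and 4 to 7 with 1 array left out. Ctsc, Ctsh and Ctsl passed in both knockout comparisons whichever array was left out (highest adjusted p 0.0166, 0.0371 and 0.0175 against wild type). Over all genes the count against wild type was 266, and 0 to 562 under the alternatives. It was 470 against heterozygotes, and 3 to 962. Log2 differences of the 8 genes in both knockout comparisons kept their sign under every alternative run. With the Y-linked score, those of Ctsa (0.10), Ctsz (0.39), Ctsc (0.92), Ctsh (1.37) and Ctsl (1.09) from wild type were smaller. Those of Lgmn (2.62), Ctsb (1.17) and Ctsd (0.91) were larger. With the titles' replicate number as a replicate block, 5 of the 8 genes passed against wild type, where Ctsa (adjusted p = 0.0533) and Ctsz (0.0718) did not, and 5 against heterozygotes, where Ctsz did not (0.0532). Whether the numbers pair the pools cannot be told from so few arrays. Deviations of same-numbered knockout and wild-type pools from their group means correlated at -0.054. Those of wild-type and heterozygous pools correlated at -0.29 and -0.28, and those of knockout and heterozygous pools at -0.00018 and 0.0047. Between heterozygotes and wild type, uncalled differences changed sign. With 1 array left out they ran from -0.055 to 0.069 for Ctsb, -0.30 to 0.15 for Ctsz, -0.63 to 0.34 for Lgmn and -0.044 to 0.26 for Ctsl. For Ctsb the difference was 8.17e-05 with a pseudocount of 16, 0.00096 with arrays scaled to one median and 0.25 with the Y-linked score. For Ctsz it was 0.031 with the mean of its probe sets and 0.11 with the most variable one. With the Y-linked score it was -0.42 for Ctsa, -0.079 for Ctsl and 0.40 for Lgmn. The cause was not tested. Ctsb could not be tested with the most variable probe set, which lay under the filter, nor Ctsh with a filter at the 60th percentile.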

Other observations

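Between Ctsa and Ctsz on chromosome 2 lie Adnp and 40 genes that were tested. None of the 40 rose against wild type and 3 fell (limma, adjusted p under 0.05), where 1.96% of all genes were called higher and 1.36% lower. The 3 are Trp53rka (log2 difference -2.72), Snai1, a zinc-finger transcriptional repressor (-1.23), and Sulf2, an extracellular sulfatase (-0.89). The median log2 difference was -0.10 over the 40 genes, against 0.91 for Ctsa and 1.06 for Ctsz. Over the whole of chromosome 2, 12 of 675 tested genes rose and 20 fell, and on other chromosomes 145 of 7337 rose and 89 fell.

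Primitive erythroid cells and parietal endoderm had 0 of 7 and 0 of 9 tested markers called against wild type. Of the erythroid markers with a probe set, the summed signal was 10240 and 16644 in the knockout, 9664 to 12185 in heterozygotes and 11671 and 16802 in wild type. For parietal endoderm the sums were 2692 and 2696 in the knockout, 2254 to 2724 in heterozygotes and 2187 and 2742 in wild type. Of 13 tested markers of the embryo proper, 3 fell against wild type and 0 rose (median -0.26), where 1.36% of all genes were called lower. Against heterozygotes 4 fell and 0 rose (median -0.014), where 2.76% of all genes were called lower.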
